A study of Mus musculus with 17 samples.

Results

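Transcript levels in the diaphragm were compared between all mice that received rFibcd1 and all mice that received mock injections, with tumor status held as a factor. The members of the comparison were the 13305 genes with at least 1 TPM (transcripts per 1000000) in at least 3 samples, out of 47643 gene symbols listed, and all 17 mice entered it. rFibcd1 is a recombinant C-terminal fragment of mouse Fibcd1 that holds the fibrinogen-like domain, and it was made in insect cells and injected into the peritoneal cavity. Mock mice received the saline and albumin vehicle by the same route. All mice were 4-month-old males of the C57BL/6J strain. The groups were Control (tumor-free, mock, n = 5), Control + rFibcd1 (tumor-free, n = 5), LLC (tumor-bearing, mock, n = 3) and LLC + rFibcd1 (tumor-bearing, n = 4). The tumors came from Lewis lung carcinoma cells, a mouse line placed under the skin of both flanks, and rFibcd1 was begun after the tumors had grown. The comparison of 9 rFibcd1 mice with 8 mock mice asks which transcripts the injected protein moves whether or not a tumor is present.

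Fibcd1 is a transmembrane receptor for chitin and other acetylated ligands, and its extracellular C-terminal part can be released and act on other cells. In muscle cells the secreted part has been linked to the ERK cascade, in which the kinase ERK is switched on by phosphorylation and then induces its own inhibitors, the Sprouty, Spred and Dusp proteins. The platelet integrin subunit encoded by Itga2b has been named as a candidate receptor. Transcripts of Fibcd1 itself were close to absent from these muscles, where its highest value was 0.0352 TPM (4 reads) and 10 samples were above 0, so the gene lay below the filter and was not tested. The labelled tissue matched its markers, since all 12 skeletal muscle markers listed were measured and together held 42736 to 54391 TPM in each sample. Their median difference was 0.023 on the log2(TPM + 1) scale used for every difference below.

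No transcript passed the threshold in either direction. With limma and Benjamini-Hochberg adjustment, 0 of 13305 genes (0%) had an adjusted p under 0.05 (the lowest was 0.339). At an unadjusted p under 0.05 limma counted 1917 genes (14.4%), of which 128 were higher (0.962%) and 1789 lower (13.4%) in rFibcd1 mice. A stratified rank-sum test gave 0 genes after adjustment and 1515 at an unadjusted p under 0.05. Its exact p cannot fall below 0.000227 (8820 arrangements). No gene could thus pass adjustment over 13305 genes unless many reached that floor together, and its 0 adds little to that of limma. Below, "lower" and "higher" describe the measured difference of rFibcd1 from mock mice and no gene is called changed, because the adjusted p is 0.339 or more for each. Errors after ± are standard errors of the difference unless marked SD. On simulated data with the spread of these samples, the same test recovered 38%, 78%, 96% and 98% of genes given a log2 difference of 0.25, 0.5, 1 and 2, with 50 genes at each size. It called 8 of the 13105 genes left as they were. The simulated noise was drawn independently for each gene and mouse. In the real samples the first principal component held 53.1% of the variance, so genes vary together. The recovered shares therefore describe independent noise only, and the power in these samples was not tested.

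The intervals describe the precision of each gene's average difference over both tumor states, for TPM as deposited. They are not adjusted over genes and move with the scaling of TPM. The log2(TPM + 1) scale also understates changes of low genes, so they do not bound the true fold of such genes. The median standard error was 0.073 and the median half-width of the 95% interval 0.155 on the log2 scale. For 11568 genes (86.9%) the 95% interval of the difference lay wholly within a 1.5-fold difference in either direction, and for 12598 genes (94.7%) within a 2-fold difference. The middle of the distribution was narrow, with a 5th percentile of -0.39 and a 95th percentile of 0.087. The tumor-adjusted difference weights tumor-free mice by 59.3% and LLC mice by 40.7%, and a transcript that moves in opposite directions in the 2 strata cancels in it.

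Although no gene passed, the differences leaned one way. The median gene stood at -0.08, 10591 genes (79.6%) were below 0, and this held in tumor-free mice (78.4% of genes, median -0.06) as in LLC mice (73.0%, median -0.11). TPM sum to 1000000 in every sample, and mitochondrially encoded transcripts held part of that sum, whose part in the lean was tested only by the rescaling without them given below. In tumor-bearing mice they held 45.2% ± 1.48 with rFibcd1 (SD, n = 4) and 42.9% ± 1.53 with mock (SD, n = 3), and in tumor-free mice 47.8% ± 1.93 with rFibcd1 and 47.1% ± 1.09 with mock (SD, n = 5 each). Their share was 1.30 percentage points higher with rFibcd1 after adjustment for tumor (0.641 in tumor-free and 2.26 in LLC mice), which did not pass the test (exact stratified permutation test over 8820 arrangements, two-sided, p = 0.105, adjusted over 3 sample measures 0.105). The number of genes with at least 1 TPM differed by -342 (exact stratified permutation p = 0.0849), and the median log2 value over the tested genes differed by -0.12 (exact stratified permutation p = 0.0454). Both had the same adjusted p of 0.105, and the smallest p the design allows is 0.000227.

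**Figure D1:**
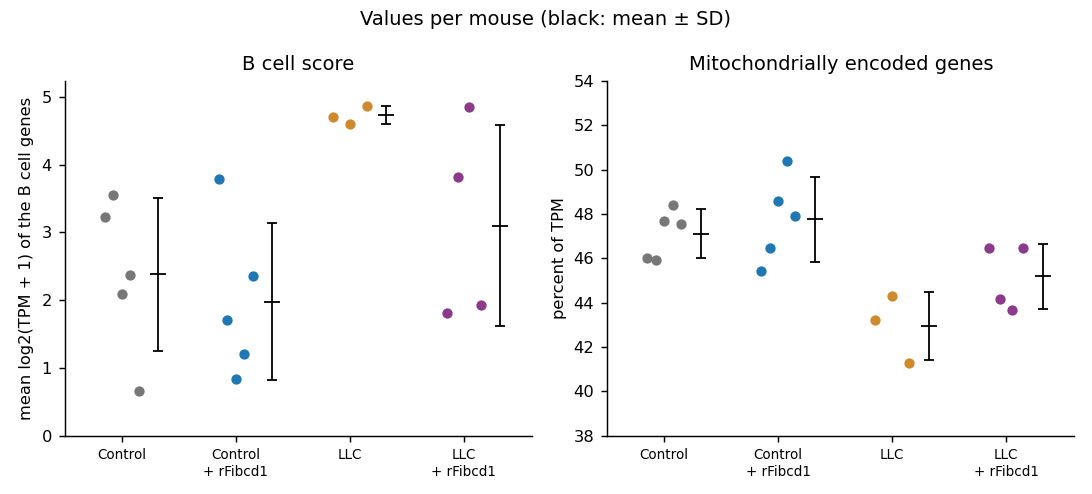
B cell score (left, mean log2(TPM + 1) of the B cell genes) and percent of TPM in mitochondrially encoded genes (right, axis not from 0) in the 4 groups, with 1 point per mouse and the mean ± SD in black. The groups with and without rFibcd1 overlap for both measures in tumor-free mice, and the mitochondrial share is lowest in LLC mice (mean 42.9%).

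The lean was also computed under other scalings. Median-ratio scaling and quantile normalization place the samples on a common centre by construction, so the median gene near 0 and the balance of calls under them are set by the method and test nothing about the lean. Of the genes at an unadjusted p under 0.05, 6.68% were higher in rFibcd1 mice with TPM as deposited. That share was 16.7% of 1491 genes when TPM were rescaled without mitochondrially encoded genes, which forces no common centre (249 higher, 1242 lower, 70.4% of genes below 0, median gene -0.06), 72.7% of 1442 genes with median-ratio scaling (1049 higher, 393 lower, median gene 0.0061) and 72.3% of 1050 genes with quantile normalization (759 higher, 291 lower, median gene 0.026). TPM measure a share of the sample, and whether the lean is one in RNA per muscle was not tested. The adjusted count was 0 under each scaling.

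**Figure D2:**
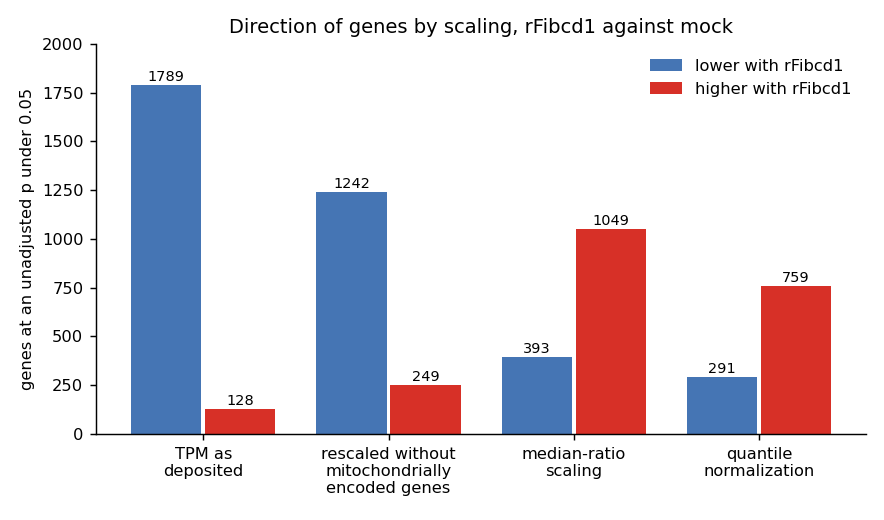
Number of genes at an unadjusted p under 0.05 that were higher or lower in rFibcd1 mice, by how TPM were scaled (limma, tumor adjusted). Lower genes prevail with TPM as deposited (1789 against 128) and higher genes with median-ratio scaling (1049 against 393), which centres the samples by construction.

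The lower genes with the smallest p and the same sign in both strata were led by Lefty1 (chr1:180935022-180938400 on GRCm38), which encodes a secreted antagonist of the TGF-β family ligand Nodal. Its level was 1.88, 2.30, 2.19, 1.98 and 2.10 TPM in Control and 2.00, 1.18, 1.21, 1.30 and 1.95 TPM in Control + rFibcd1. In tumor-bearing mice it was 2.94, 3.18 and 3.13 TPM in LLC and 1.66, 1.73, 1.37 and 1.34 TPM in LLC + rFibcd1. The tumor-free groups overlapped at their edges, whereas every LLC + rFibcd1 mouse lay far below every LLC mouse. The tumor-adjusted difference was -0.46 ± 0.086 (SE), with a 95% interval from -0.645 to -0.279 and the smallest p of all genes (adjusted p = 0.339, limma). It was -0.30 in tumor-free and -0.70 in LLC mice (interaction, the second minus the first, of -0.39 ± 0.150).

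Kit (chr5:75574916-75656722), the receptor for stem cell factor carried by mast cells and some progenitors, showed a similar pattern. Kit measured 1.59, 1.74, 1.58, 2.11 and 1.31 TPM in Control against 1.28, 1.14, 0.656, 1.02 and 1.33 TPM in Control + rFibcd1. In LLC mice the values were 2.22, 1.51 and 2.07 TPM against 0.614, 1.49, 1.30 and 0.698 TPM with rFibcd1. Only the highest tumor-free rFibcd1 mouse reached into the mock range, and in LLC mice the groups met without crossing. The difference in Kit was -0.44 ± 0.104, -0.36 in tumor-free and -0.55 in LLC mice. Nudt14 (chr12:112934291-112942124), which hydrolyses UDP-glucose, was lower by a smaller ratio at a higher level. It measured 15, 13.5, 13.4, 12 and 12.6 TPM in Control against 10.5, 11.2, 10.05, 10.9 and 11.7 TPM in Control + rFibcd1, without overlap, but 15.6, 12.7 and 13.4 TPM in LLC overlapped 12.4, 11.5, 12.9 and 10.6 TPM in LLC + rFibcd1 (difference -0.24 ± 0.052).

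Slc23a2 (chr2:132052496-132145108), a sodium-dependent transporter of vitamin C, differed by -0.23 ± 0.050. The remaining lower genes named by the rule came from membrane traffic, cilia, transcription and splicing. Vta1, a cofactor of the Vps4 ATPase in endosomal sorting, stood at -0.14 ± 0.031, and Bbs2, a subunit of the BBSome that carries proteins to cilia, at -0.19 ± 0.044. The zinc finger genes Zswim4 and Zfp574 stood at -0.21 ± 0.047 and -0.18 ± 0.045, and the splicing factor gene Rbm22 at -0.18 ± 0.044. Each of these 6 differences is well inside 1.5-fold.

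Values of rFibcd1 mice that lay entirely below those of mock mice in both strata were found for 3 genes (0.0225% of those tested), and entirely above for 0 genes (0%), where 0 genes passed adjustment and 128 were higher at an unadjusted p under 0.05 by limma. The first, Stard3 (chr11:98358368-98381112), encodes a protein of late endosomes that transfers cholesterol. Stard3 measured 12, 11.7, 11.4, 11.7 and 12.1 TPM in Control and 11.2, 10.4, 9.08, 10.7 and 11.2 TPM in Control + rFibcd1. In tumor-bearing mice it measured 12.3, 12.5 and 13.4 TPM without and 10.3, 10.6, 11.3 and 10.3 TPM with rFibcd1. The gap between the groups was narrow in tumor-free mice and wider in LLC mice, and the difference was -0.19 ± 0.040.

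Mad1l1 (chr5:140008689-140321552), a protein of the mitotic spindle checkpoint, was the next. Its level was 3.36, 3.08, 3.38, 3.08 and 3.31 TPM in Control, 3.00, 2.99, 2.72, 2.65 and 2.91 TPM in Control + rFibcd1, 3.92, 4.10 and 3.88 TPM in LLC and 3.34, 3.59, 3.47 and 3.03 TPM in LLC + rFibcd1, a difference of -0.16 ± 0.038. The LLC + rFibcd1 values of Mad1l1 overlapped the range of Control, so the groups were apart only within each tumor state. The last of the 3 was Gm10036, annotated as a processed pseudogene, whose reads may be shared with the gene it was copied from. Gm10036 averaged close to 1 TPM and differed by -0.54 ± 0.122, the lowest level of the 3. It reached 1 TPM in 6 mock and 1 rFibcd1 mice, so it was kept only through the group in which it is high.

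**Figure D3:**
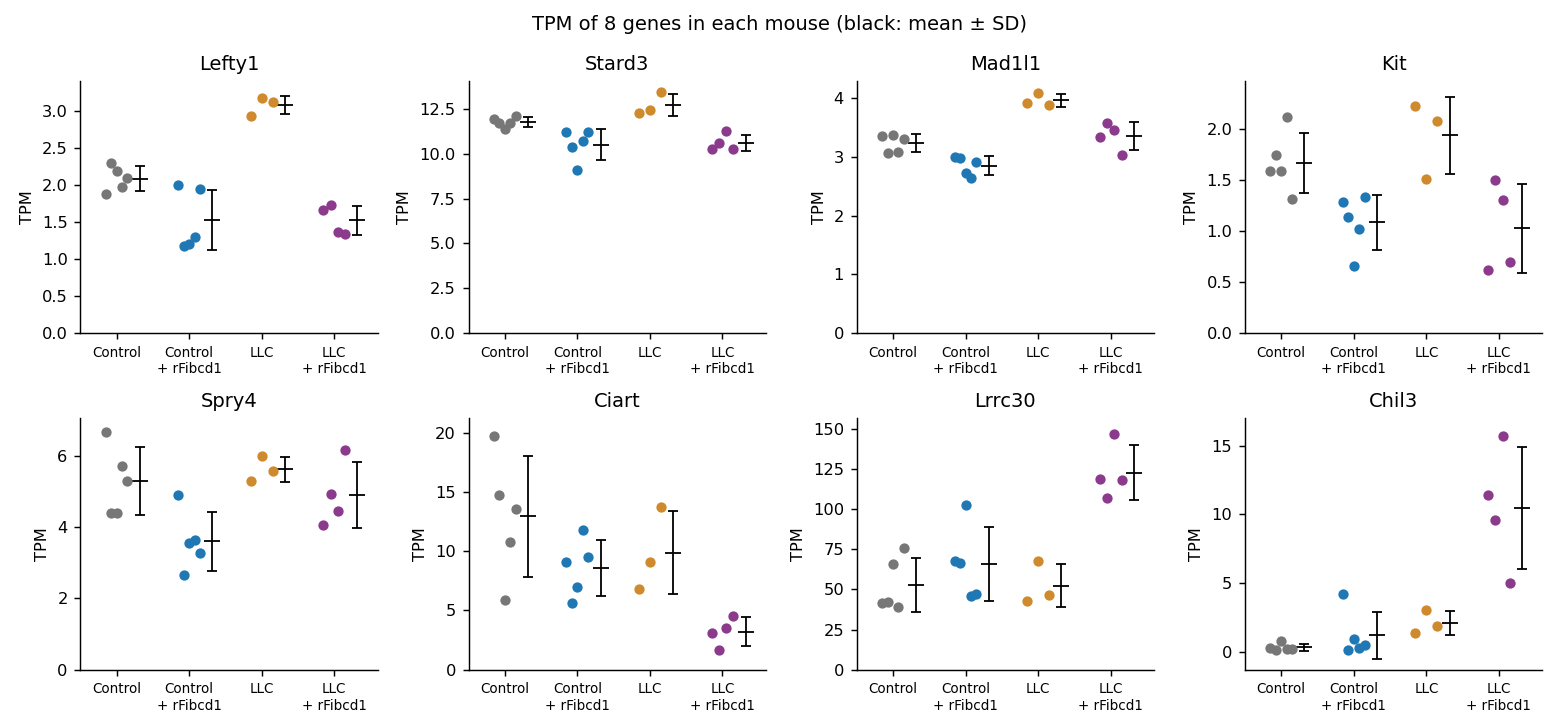
TPM per mouse in the 4 groups for 8 genes named in the text, on linear axes, with 1 point per mouse and the mean ± SD in black. Stard3 and Mad1l1 show rFibcd1 mice wholly below mock mice in tumor-free and in LLC mice, while Chil3 and Lrrc30 stand highest in the LLC + rFibcd1 group.

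Higher genes were fewer. Chil3 (chr3:106147554-106167564), which encodes the chitinase-like macrophage and neutrophil protein Ym1, measured 0.244, 0.146, 0.793, 0.221 and 0.228 TPM in Control and 4.21, 0.144, 0.908, 0.252 and 0.520 TPM in Control + rFibcd1. In LLC mice Chil3 measured 1.38, 3.05 and 1.85 TPM, and in LLC + rFibcd1 mice 11.4, 9.61, 15.7 and 5.02 TPM. The groups overlapped without a tumor and were apart with one. The tumor-adjusted difference of 1.04 ± 0.315 combined 0.50 in tumor-free with 1.83 in LLC mice (interaction 1.33 ± 0.567).

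Lrrc30 (chr17:67630964-67632723), a leucine-rich repeat gene, gave the same picture at a higher level. Lrrc30 measured 41.6, 42.0, 65.6, 39.3 and 75.4 TPM in Control and 67.5, 66.3, 103, 45.9 and 47.3 TPM in Control + rFibcd1, then 42.8, 67.6 and 46.3 TPM in LLC and 119, 107, 147 and 118 TPM in LLC + rFibcd1. The difference was 0.68 ± 0.205, or 0.30 in tumor-free and 1.23 in LLC mice (interaction 0.93 ± 0.358). Ddit4l, an inhibitor of the growth kinase complex mTORC1, was almost wholly an LLC difference, at 0.088 in tumor-free and 0.74 in LLC mice (tumor-adjusted 0.35 ± 0.109, interaction 0.65 ± 0.158).

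Det1 (chr7:78821547-78847263), a partner of the ubiquitin ligase COP1, was the reverse case of a small difference with little spread. It measured 7.47, 7.38, 7.99, 7.19 and 7.72 TPM in Control, 7.97, 8.03, 8.19, 7.81 and 8.18 TPM in Control + rFibcd1, 7.45, 7.41 and 7.30 TPM in LLC, and 8.13, 8.55, 8.58 and 8.28 TPM in LLC + rFibcd1. A single Control mouse at 7.99 TPM kept Det1 from separating in both strata, and the difference was 0.11 ± 0.028. The non-coding RNA Gm7160 (0.38 ± 0.083) did not exceed 1.24 TPM in any mouse and reached 1 TPM in 4 rFibcd1 and 0 mock mice. It entered the comparison only through the group in which it is high, so its place among the higher genes is no more than a description. Over all genes 100 were kept only through rFibcd1 mice and 319 only through mock mice. Others were Tmem38b, a cation channel of the sarcoplasmic and endoplasmic reticulum (0.16 ± 0.041), the mitochondrial genes Ethe1 (0.11 ± 0.031) and Higd1a (0.096 ± 0.030), the deubiquitinase Josd2 (0.14 ± 0.042), Fbxw4 (0.097 ± 0.025), Zfp428 (0.21 ± 0.062) and the antisense gene Gm15510 (0.16 ± 0.048), which may share reads with the gene on the other strand.

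With the cutoff of the study, an unadjusted p under 0.05 and a difference of more than 1.5-fold, 73 genes (0.549%) were found, 69 lower (0.519%) and 4 higher (0.0301%). Of the 73, 33 were immunoglobulin gene segments, each of them lower. The 4 higher genes, named after their values were seen, were Chil3, Lrrc30, Erdr1 and Pagr1a. Erdr1 differed by 0.92 ± 0.408 but ranged from 4.90 to 53.7 TPM among Control mice alone. Pagr1a differed by 0.85 ± 0.400, with 0.0579 to 2.07 TPM in Control and 0.0786 to 4.72 TPM in Control + rFibcd1, and its difference in LLC mice was 0.30. Pagr1a was kept only through rFibcd1 mice, with 1 TPM or more in 7 of them and in 2 mock mice. Of these 4, Chil3 and Lrrc30 were higher in every LLC + rFibcd1 mouse than in every LLC mouse, and Erdr1 and Pagr1a were not.

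Among the 36 lower genes that are not immunoglobulin segments, Star, which moves cholesterol into mitochondria for steroid synthesis, stood at -0.61 ± 0.172, Icosl, the ligand of the T cell costimulator ICOS, at -0.61 ± 0.190, and the interferon-induced GTPase Tgtp2 at -0.59 ± 0.150. These 3 were chosen after their values were seen. Tgtp2 measured 9.03, 8.67, 8.43, 14.7 and 9.86 TPM in Control, 9.35, 5.25, 5.07, 6.07 and 7.02 TPM in Control + rFibcd1, 8.85, 10.003 and 9.47 TPM in LLC and 4.09, 6.83, 9.26 and 4.17 TPM in LLC + rFibcd1. A single mouse of each rFibcd1 group lay within the mock range. Tgtp2 has a near-identical neighbour, Tgtp1, and the counting may divide reads between them.

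The immunoglobulin segments varied widely between mice. Of 177 tested, 169 were below 0, with a median of -1.08 beside -0.08 for all genes, and 33 had an unadjusted p under 0.05. Over all genes 79.6% were below 0 and 14.4% had such a p. Of the 177, 21 were kept only through mock mice and 4 only through rFibcd1 mice, so the counts and the median describe the segments that were kept and support nothing about the family. Ighv8-12, the lowest, stood at -3.12 ± 0.997, which joined -1.55 in tumor-free and -5.41 in LLC mice. Igkv6-20 was lower by a like amount in both, -2.21 and -2.61 (tumor-adjusted -2.37 ± 0.652). Segments of this family resemble each other so closely that the value of any one of them is uncertain, and in bulk samples fewer B lineage cells and less RNA per cell cannot be told apart.

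ERK output was examined first among the gene lists, as the pathway linked to rFibcd1. In this and the following lists, counts of lower and higher genes are those at an unadjusted p under 0.05, to be read against 13.4% and 0.962% of all genes. A count from another model has that model's own background, which was 2.95% lower and 7.88% higher with median-ratio scaling, 2.19% and 5.70% with quantile normalization, and 3.33% and 0.519% in the model with the B cell score. Lower genes were 31.5% of all without Control + rFibcd1 replicate 1, 7.63% without its replicate 3 and 14.8% without its replicate 5. They were 10.4%, 9.23%, 13.6% and 17.5% without Control replicates 1, 2, 3 and 5. Without LLC replicates 1 and 3 they were 7.75% and 6.40%, and without LLC + rFibcd1 replicate 3 they were 15.7%. Rescaled without mitochondrially encoded genes, 9.34% were lower and 1.87% higher. None of the 19 tested genes of this list was higher at an unadjusted p under 0.05 and 9 were lower (background 13.4% of genes lower), with a list median of -0.13 beside -0.08 for all genes, and 0 passed adjustment. The feedback inhibitor Spry4 (chr18:38586247-38601415) led with -0.34 ± 0.103. Its level was 6.66, 4.41, 4.40, 5.72 and 5.31 TPM in Control and 4.91, 2.64, 3.54, 3.63 and 3.27 TPM in Control + rFibcd1, and 5.29, 5.99 and 5.57 TPM in LLC beside 4.05, 4.92, 4.46 and 6.18 TPM in LLC + rFibcd1. Both strata overlapped, by a single rFibcd1 mouse in each.

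The other ERK feedback inhibitors at that p were Spred2 (-0.13 ± 0.047), Spred1 (-0.22 ± 0.093), Dusp6 (-0.19 ± 0.078) and Dusp4 (-0.33 ± 0.145). Spry1 (0.081 ± 0.070), Spry2 (-0.12 ± 0.085), Spred3 (-0.052 ± 0.068), Dusp5 (-0.30 ± 0.182) and Il17rd (-0.041 ± 0.080) did not reach it. Of the transcription factors and cell cycle genes downstream of ERK, Etv1 (-0.18 ± 0.079), Etv5 (-0.12 ± 0.057), the cyclin Ccnd1 (-0.36 ± 0.157) and the receptor Epha4 (-0.12 ± 0.056) did, whereas Etv4 (0.07 ± 0.066), Myc (-0.31 ± 0.181), Egr1 (-0.21 ± 0.428), Ier3 (-0.05 ± 0.199) and Phlda1 (0.054 ± 0.130) did not. The 95% interval excluded a 1.5-fold higher level for 18 of the 19 genes. The count of lower ERK genes moved with the scaling, to 7 when rescaled without mitochondrially encoded genes, 1 with median-ratio scaling (and 1 higher) and 0 with quantile normalization, and leaving out a mouse moved it between 2 (without Control + rFibcd1 replicate 3) and 10 (without Control + rFibcd1 replicate 1). In a model that holds a score of B cell markers, described below, 2 ERK genes were lower (median -0.12). That score was itself measured after treatment, so this model also removes rFibcd1 differences that go with it. Etv1 and Spred3 were kept only through mock mice. Immediate early genes, which respond to ERK within minutes, held no gene of 20 at an unadjusted p under 0.05 by limma, and 0 passed adjustment (median -0.12), but 4 were lower without Control + rFibcd1 replicate 1.

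Receptors and relatives of Fibcd1 were next. Itga2b (chr11:102453297-102470122) differed by 0.15 ± 0.206 with an interval from -0.291 to 0.584, at 0.32 in tumor-free and -0.10 in LLC mice. It ranged from 0.481 to 2.75 TPM in Control + rFibcd1 and from 0.970 to 3.12 TPM in LLC + rFibcd1, across the range of the mock mice. Of 20 integrin genes 1 was lower, Itgav, an RGD-binding α subunit (-0.14 ± 0.063), and without Control + rFibcd1 replicate 1 this count was 7, near the 31.5% of all genes lower there, while with median-ratio scaling it was 0, with 1 higher. Of 15 genes with a fibrinogen-like domain 3 were lower, the secreted factor Angptl2 (-0.30 ± 0.099) and the matrix proteins Tnc (-0.48 ± 0.204) and Tnxb (-0.22 ± 0.098), and 0 higher. The count was 1 without LLC replicate 3 and 1 in the model with a B cell score, and Tnc was kept only through mock mice.

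The study named 15 tested genes of its own in these samples, which is why their direction is not independent evidence. Of the 15, 3 were lower at an unadjusted p under 0.05 and 0 higher, with a median of -0.23 beside -0.08 for all genes. The 3 are the lysosomal proteases Ctso (-0.32 ± 0.131), Ctse (-0.73 ± 0.319) and Ctsw (-0.45 ± 0.196). Ctse measured 10.7 TPM in LLC replicate 3, beside 1.19 and 1.89 TPM in the other LLC mice. In the model that holds the B cell score 0 of the 15 were lower, with a median of -0.0056 (7 genes above and 8 below 0). Ctse, Ctsw and Ubd were kept only through mock mice. The count of lower genes was 0 without LLC replicate 3 and 9 without Control + rFibcd1 replicate 1. Other cathepsins stood at -0.22 ± 0.144 (Ctsc), -0.23 ± 0.160 (Ctsz), -0.46 ± 0.355 (Ctss) and -0.17 ± 0.136 (Ctsh), the related protease Napsa at -0.69 ± 0.455, the ubiquitin-like modifier Ubd at -0.72 ± 0.372, the ubiquitin ligase Syvn1 at -0.23 ± 0.120, Hgs at -0.10 ± 0.067 and the B cell chemokine Cxcl13 at -0.84 ± 0.742.

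The remaining 3 genes of that list, with TPM as deposited, pointed in opposite directions in the 2 strata, and none was at an unadjusted p under 0.05 on average. The atrophy ligase Fbxo32 (atrogin-1) was at -0.12 in tumor-free and 0.57 in LLC mice (tumor-adjusted 0.16 ± 0.141, interaction 0.69 ± 0.236). Fbxo32 measured 73.2, 98.5 and 71.8 TPM in LLC and 174, 96.3, 110 and 113 TPM in LLC + rFibcd1. Trim63 (MuRF1), its partner in myofibrillar protein breakdown, was 75.2, 104 and 96.7 TPM in LLC and 193, 116, 124 and 198 TPM in LLC + rFibcd1 (0.74, beside -0.22 in tumor-free mice, tumor-adjusted 0.17 ± 0.192, interaction 0.96 ± 0.321). The LLC groups of Trim63 did not overlap and those of Fbxo32 did. The coactivator of mitochondrial genes Ppargc1a was at -0.72 in tumor-free and 0.86 in LLC mice (tumor-adjusted -0.079 ± 0.322, interaction 1.58 ± 0.541).

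**Figure D4:**
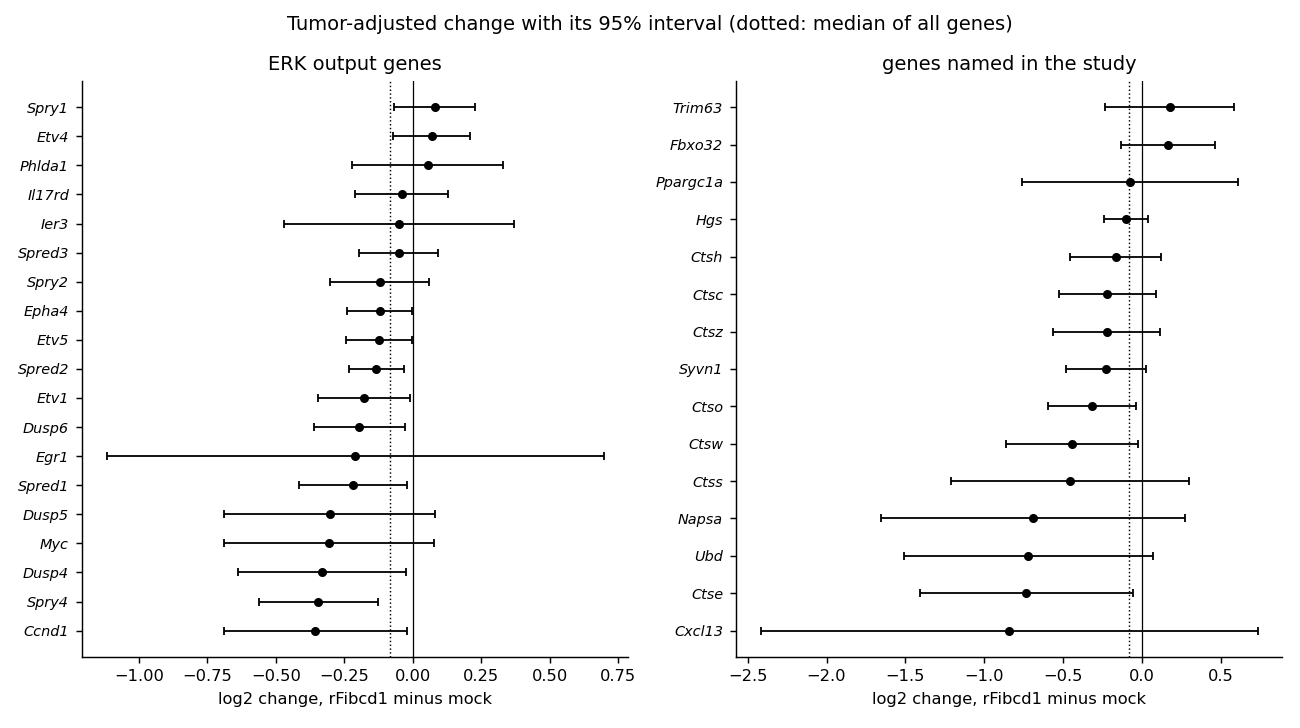
Tumor-adjusted difference (log2, rFibcd1 minus mock) with its 95% interval for the 19 ERK output genes (left) and the 15 genes named in the study (right), with the median of all genes as a dotted line. No interval in either panel lies wholly above 0, and those of 9 ERK output genes and 3 study genes lie wholly below it.

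Across 20 atrophy-linked ubiquitin ligases, 4 were lower and 0 higher (median -0.02), and for 19 the interval lay within 1.5-fold either way. Relative to the median gene the list median was 0.064. With median-ratio scaling, which moves nearly all genes up together, 3 were higher (7.88% of all genes), 1 lower and the median 0.066, and with quantile normalization 1 was lower (median 0.056). Leaving out a mouse gave 2 (without Control replicate 3) to 8 lower (without Control + rFibcd1 replicate 1). The 4 were Cblb, which targets the insulin receptor substrate in unloaded muscle (-0.29 ± 0.092), Trim32 (-0.14 ± 0.052), Ubr4 (-0.084 ± 0.038) and Traf6 (-0.10 ± 0.045). Cblb measured 6.41, 7.80, 7.70, 6.71 and 9.18 TPM in Control and 6.94, 7.41, 6.17, 5.11 and 5.32 TPM in Control + rFibcd1, with overlap. All 22 autophagy genes had intervals within 1.5-fold either way (median -0.05), and limma gave 0 past adjustment and 0 at an unadjusted p under 0.05. The 22 glucocorticoid targets likewise gave 0 and 0 (median -0.01). That value joined 0.092 in tumor-free mice (7 of 22 genes below 0) and -0.11 in LLC mice (16 of 22). The tumor-adjusted medians of both lists were above 0 with median-ratio scaling (0.052 and 0.093, 2 autophagy genes higher), and 3 autophagy genes were lower without Control + rFibcd1 replicate 1.

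Clock output factors, transcription factors whose levels cycle over the day and are driven by the core clock, differed more than the median gene. Of 12 tested, 7 were lower at an unadjusted p under 0.05 (background 13.4%), 0 higher and 0 past adjustment, with a median of -0.36 that joined -0.14 in tumor-free and -0.69 in LLC mice. Ciart (chr3:95878503-95882251), a repressor of the core clock activators, was 19.7, 14.8, 5.86, 10.8 and 13.6 TPM in Control and 9.06, 5.66, 7.01, 11.8 and 9.53 TPM in Control + rFibcd1. In LLC mice it was 6.82, 9.12 and 13.7 TPM without and 3.14, 1.66, 3.54 and 4.54 TPM with rFibcd1. The groups overlapped broadly in tumor-free mice and were apart in LLC mice (difference -0.84 ± 0.237, -0.48 and -1.37 by stratum).

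Bhlhe41, another repressor of the same activators, gave -0.42 ± 0.115, the output factor Dbp -0.55 ± 0.166 and its relative Hlf -0.48 ± 0.144. Dbp measured 171, 185, 128, 166 and 149 TPM in Control, 129, 126, 106, 188 and 169 TPM in Control + rFibcd1, 154, 123 and 146 TPM in LLC and 73.4, 47.0, 70.1 and 70.3 TPM in LLC + rFibcd1. Its difference was thus -0.17 in tumor-free and -1.12 in LLC mice (interaction -0.95 ± 0.249), and that of Hlf -0.12 and -1.0 (interaction -0.88 ± 0.201). With median-ratio scaling or quantile normalization 4 of the 12 were lower (2.95% and 2.19% of all genes). Over the 12 genes, 6 had an unadjusted interaction p under 0.05, beside 8.58% of all genes. Of 9 core clock genes 2 were lower, Cry2 (-0.27 ± 0.086) and Csnk1d (-0.15 ± 0.052), but with median-ratio scaling or quantile normalization 0 were lower and 1 higher. The activator Arntl stood at 0.48 ± 0.240, with 2.88, 4.72 and 4.00 TPM in LLC and 11.1, 16.7, 8.27 and 9.42 TPM in LLC + rFibcd1. The time of day of dissection is not given in the sources used here and its part in these values was not tested.

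The activators CLOCK and ARNTL bind the E-box, and its perfect form CACGTG, which reads alike on both strands, was searched for in the RefSeq promoters (GRCm38.p6, 250 bases before to 50 after the start) of the 7 lower clock output genes. It was present in 3 of 7, namely Ciart, Bhlhe41 and Tef, and in 2349 of 32851 promoter windows overall (7.15%). The 7 were taken from a list of factors driven by the core clock. Their share beside that of all windows may follow from how the list was built, and it does not test rFibcd1. The other genes of the list were not searched, so whether the motif goes with a lower level was not tested. The promoters of Ciart (chr3:95882179-95882478, minus strand) and Bhlhe41 (chr6:145865371-145865670, minus strand), the genes with the lowest p of the list, are shown 5′ to 3′ because they hold the motif, which is in capitals. Ciart holds 3 copies and Bhlhe41 1. A match describes the letters only.
Ciart: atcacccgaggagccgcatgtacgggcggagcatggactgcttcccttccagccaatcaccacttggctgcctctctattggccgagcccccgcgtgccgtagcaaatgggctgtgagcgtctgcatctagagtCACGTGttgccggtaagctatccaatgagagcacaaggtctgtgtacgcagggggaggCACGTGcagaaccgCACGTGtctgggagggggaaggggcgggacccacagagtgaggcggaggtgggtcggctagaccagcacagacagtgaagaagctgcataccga
Bhlhe41: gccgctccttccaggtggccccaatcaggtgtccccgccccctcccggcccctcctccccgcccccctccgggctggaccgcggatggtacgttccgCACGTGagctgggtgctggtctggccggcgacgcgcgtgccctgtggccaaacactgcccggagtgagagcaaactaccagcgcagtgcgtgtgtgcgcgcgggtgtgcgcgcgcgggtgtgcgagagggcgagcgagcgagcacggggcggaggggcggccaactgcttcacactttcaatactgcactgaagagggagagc

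Inflammatory signaling was described by 3 lists. Of 15 tested IL-6 and STAT3 genes 2 were lower, near the background share, with 2 above 0 and a median of -0.14. The count was 0 with median-ratio scaling, with quantile normalization and in the model with the B cell score. It was 0 (without Control replicate 1, 10.4% of all genes) to 4 (without Control + rFibcd1 replicate 1, 31.5%) when a mouse was left out. Of 19 tested type I interferon genes 2 were lower, with 3 above 0 and a median of -0.13, but 10 were lower without Control + rFibcd1 replicate 1. Each of the 18 TNF and NF-kB genes was below 0 (79.6% of all genes were), though 14 of the 18 were with quantile normalization and 14 in the model with the B cell score, 7 were lower at an unadjusted p under 0.05 and 0 higher, with a median of -0.20. The TNF and NF-kB genes were led by the endothelial adhesion molecule Vcam1, at 4.44, 4.69, 3.34, 3.47 and 3.24 TPM in Control, 3.58, 2.92, 3.41, 2.33 and 2.97 TPM in Control + rFibcd1, 6.95, 7.31 and 10.4 TPM in LLC and 2.17, 4.74, 6.55 and 2.79 TPM in LLC + rFibcd1 (-0.53 ± 0.168). Vcam1 groups were apart in LLC mice and overlapped in tumor-free mice. The NF-kB subunits Rela (-0.19 ± 0.067) and Nfkb2 (-0.32 ± 0.112) and the feedback inhibitor Tnfaip3 (-0.38 ± 0.146) followed. A B cell score, the mean log2 level of 14 B cell genes in each mouse, was added to the model as an alternative. The score was measured in the same mice after treatment and was lower in most LLC + rFibcd1 mice than in LLC mice. Holding it therefore also removes rFibcd1 differences that go with it, so a smaller count there does not say why genes differ. In that model 4 of the 18 were lower at an unadjusted p under 0.05, and the list median was -0.08. The count was also 4 with quantile normalization, and 4 without LLC replicate 3 but 11 without Control + rFibcd1 replicate 1.

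Genes of antigen presentation followed. Of 15 genes of MHC class I and the immunoproteasome, 9 were lower at an unadjusted p under 0.05, 0 higher and 0 past adjustment (median -0.51). Examples were the class I molecules H2-Q4 (-0.53 ± 0.207) and H2-Q6 (-0.96 ± 0.404), whose reads may be shared with the close copy H2-Q7, the immunoproteasome subunit Psmb8 (-0.52 ± 0.229) and the peptide transporter Tap1 (-0.54 ± 0.237). Within LLC + rFibcd1, H2-Q6 measured 8.72, 30.6, 71.6 and 9.28 TPM, and in LLC 54.6, 56.1 and 65.1 TPM, so replicate 3 with rFibcd1 was the highest tumor-bearing mouse. Of 10 MHC class II genes 2 were lower, the transactivator Ciita (-0.68 ± 0.293) and H2-Aa (-0.66 ± 0.309), with a list median of -0.65, and 0 were in the model with the B cell score (median -0.10). The class I count was 4 with median-ratio scaling and 1 in the model with a B cell score (median -0.12). It was between 1 (without Control replicate 2, 9.23% of all genes) and 14 (without Control + rFibcd1 replicate 1, 31.5%) when a mouse was left out.

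Lymphocyte markers lay below 0 beside these genes, and their part in the result was not tested further. None of the markers named here passed adjustment. All 14 B cell markers were below 0, with a median of -0.98, and 1 was lower at an unadjusted p under 0.05, the B lineage factor Ebf1 (-0.18 ± 0.078). Ebf1 reached 1 TPM in every mouse, whereas Pax5 of the same list did so in 5 mock and 3 rFibcd1 mice. Whether the level of Ebf1 comes from B cells was not tested. The summed level of the B cell markers ran from 19.2 to 2115 TPM in Control, 34.4 to 1269 TPM in Control + rFibcd1, 2673 to 4331 TPM in LLC and 182 to 3233 TPM in LLC + rFibcd1. The B cell score spanned 0.658 to 3.55 in Control and 0.836 to 3.79 in Control + rFibcd1, and 4.60 to 4.87 in LLC against 1.82 to 4.84 in LLC + rFibcd1. The score overlapped broadly between the tumor-free groups, and LLC + rFibcd1 mice reached from far below LLC mice into their range. Of 15 T and NK cell markers 4 were lower, Il7r, the interleukin 7 receptor (-0.54 ± 0.237), Cd4 (-0.64 ± 0.289), the receptor kinase Zap70 (-0.38 ± 0.172) and the T cell receptor constant gene Trac (-0.87 ± 0.404), and 0 were in the model that holds the B cell score. Leaving out a mouse moved the B cell count from 0 (without Control replicate 1) to 13 (without Control replicate 5), and the T and NK cell and MHC class II counts from 0 (without Control replicate 1) to 14 and 10 (without Control + rFibcd1 replicate 1). Limma gave 0 genes at an unadjusted p under 0.05, and 0 after adjustment, for 14 plasma cell (median -0.67), 17 monocyte and macrophage (-0.23) and 7 neutrophil genes (0.24). The plasma cell count was 8 without Control replicate 5, and the monocyte and macrophage count 11 without Control + rFibcd1 replicate 1. Cd4, Zap70 and Cxcl10 were kept only through mock mice, as were 5 of the 15 T and NK cell markers in all, so that list's counts are a description of the markers kept. Among 17 chemokines, the interferon-induced Cxcl10 (-0.43 ± 0.156) and Cxcl9 (-0.46 ± 0.188) were lower and the stromal Cxcl12 higher (0.22 ± 0.089). The lower count ran from 1 (without LLC replicate 1, 7.75% of all genes) to 5 (without Control replicate 5, 17.5%), and was 1 in the model with the B cell score, with a median of -0.011.

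Genes of the lining and fat that border the muscle lay below 0 as well, and none passed adjustment. All 14 white adipocyte genes were below 0 (79.6% of all genes were, median -0.42), 2 of them at an unadjusted p under 0.05, the lipid synthesis enzyme Dgat2 (-0.28 ± 0.107) and the droplet protein Plin4 (-0.22 ± 0.091). The median ran from -0.72 to -0.20 when a mouse was left out, and was -0.027 (7 genes above and 7 below 0) in the model with the B cell score. Their summed level ranged from 1688 to 4561 TPM in Control and from 1744 to 5476 TPM in Control + rFibcd1, and from 2815 to 10768 TPM in LLC and 1759 to 5841 TPM in LLC + rFibcd1. All 12 mesothelial genes were likewise below 0 (median -0.48), with 0 at an unadjusted p under 0.05 and 0 past adjustment by limma, and Krt19 nearest at -0.85 ± 0.418. Without Control + rFibcd1 replicate 1 the count was 7 (31.5% of all genes), and the median ran from -0.64 to -0.32 over the mice left out. Of 21 collagen and matrix genes 1 was lower, Sparc (-0.20 ± 0.087, median -0.20), and 7 without Control + rFibcd1 replicate 5 (14.8% of all genes lower there). How far a varying amount of lining or fat in the dissected samples enters these values was not tested.

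Genes of the muscle fiber lay close to 0 with TPM as deposited. Myofiber structure (24 genes, median 0.042), slow fiber (10, 0.047), fast fiber (13, 0.027) and glycolytic genes (18, 0.030) had tumor-adjusted medians slightly above 0, that is above the median gene at -0.08. The slow fiber median joined -0.045 in tumor-free mice (7 of 10 genes below 0) and 0.19 in LLC mice (0 of 10), and it ran between -0.023 and 0.096 when a mouse was left out. In the model with the B cell score the slow and fast fiber medians were -0.033 and -0.016, so their direction depends on the model. With median-ratio scaling these medians were 0.15, 0.15, 0.13 and 0.14, and 8 of the 24 structure genes and 5 of the 18 glycolytic genes were higher (7.88% of all genes in that model), while the fast fiber median was -0.0058 with quantile normalization. Single members that were higher at an unadjusted p under 0.05 were the intermediate filament gene Des (0.14 ± 0.052), Gapdh (0.08 ± 0.038), the myogenic factor Myf6 (0.24 ± 0.078) and the endothelial VEGF receptor Flt1 (0.16 ± 0.065). Myf6 was the only 1 of 19 myogenesis and denervation genes to be so, with 13 above and 6 below 0. Flt1 was the only 1 of 14 endothelial genes, with 8 above and 6 below 0 (medians -0.071 in tumor-free and 0.16 in LLC mice). Of 22 fasting-responsive PPAR targets 2 were lower, the fatty acid import enzyme Cpt1a (-0.39 ± 0.148) and the uncoupling protein Ucp3 (-0.43 ± 0.175), and the count ran from 1 (without Control replicate 3) to 3 (without Control + rFibcd1 replicate 1). The PPAR targets lay in opposite directions by stratum, with 21 of 22 below 0 in tumor-free mice (median -0.11) and 8 of 22 in LLC mice (median 0.094), and 6 had an unadjusted interaction p under 0.05, beside 8.58% of all genes. With median-ratio scaling 1 PPAR target was lower, and the list median was 0.056. Of 20 insulin and IGF genes 1 was lower, the receptor Igf1r (-0.16 ± 0.053), but 0 with median-ratio scaling, with 1 higher. For 23 of the 24 structure genes the interval lay within 1.5-fold either way.

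**Figure D5:**
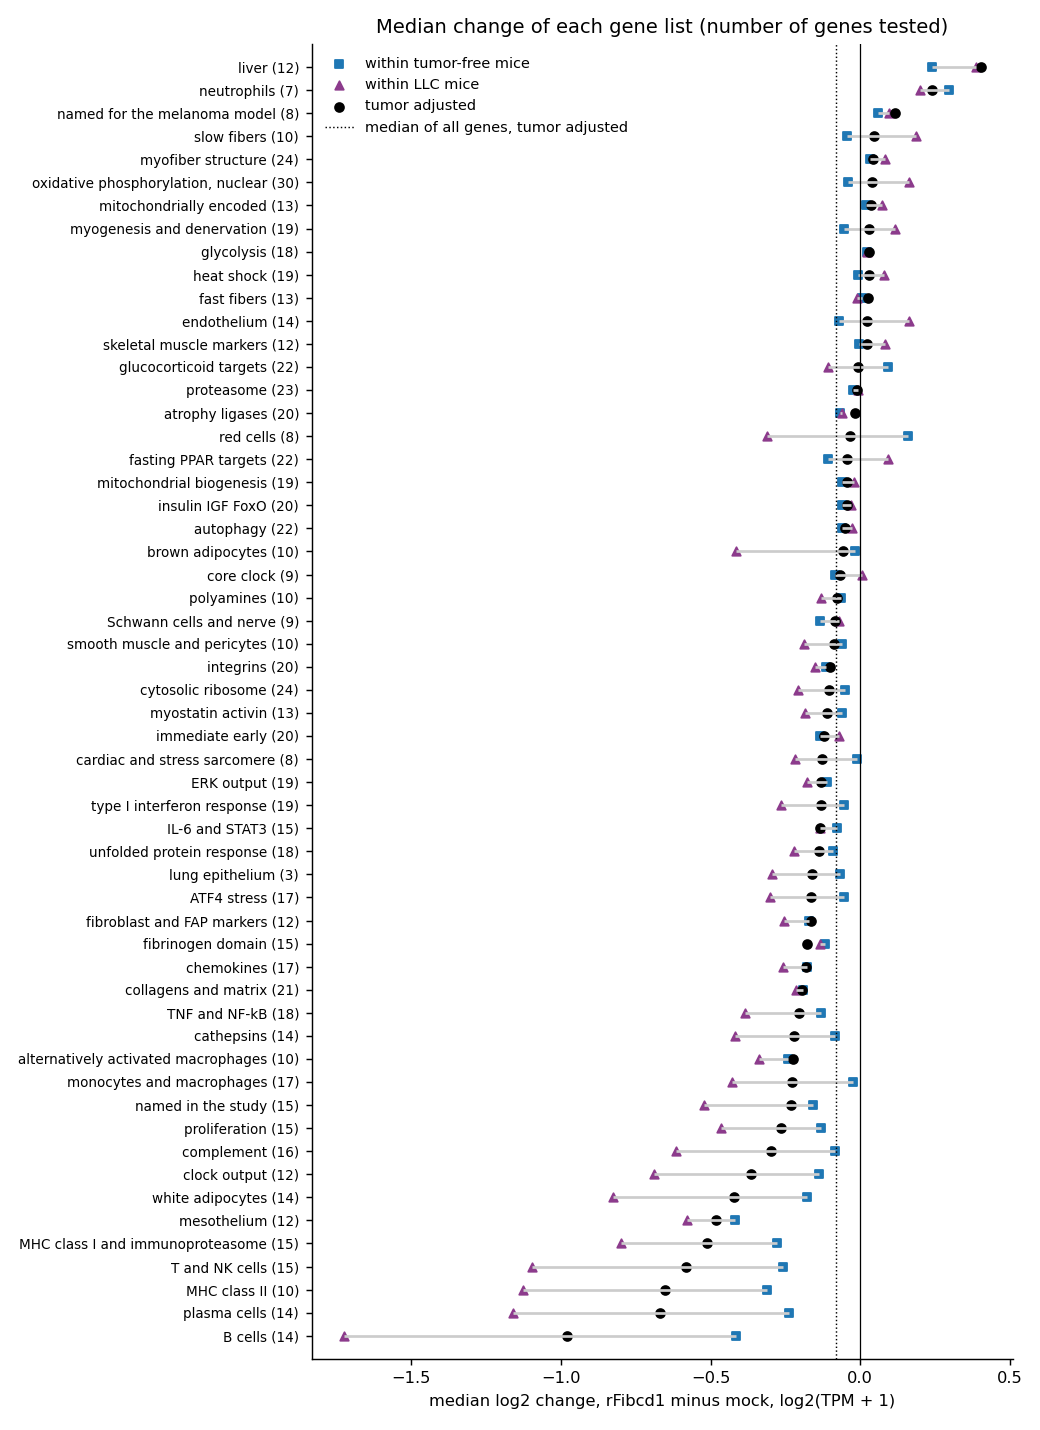
Median tumor-adjusted difference (circles, log2, rFibcd1 minus mock) of each gene list, with the medians in tumor-free (squares) and in LLC mice (triangles) and the median of all genes as a dotted line (-0.08). B cell, plasma cell, MHC class II and T and NK cell lists stand farthest below 0 and lie lower in LLC than in tumor-free mice, and the circles of the fiber lists lie just above 0.

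Nuclear genes of oxidative phosphorylation differed in opposite directions in the strata with TPM as deposited, though not with median-ratio scaling, where the median was 0.039 in tumor-free and 0.31 in LLC mice and 13 of 30 were higher at an unadjusted p under 0.05 (7.88% of all genes in that model). Their median was 0.040 over 30 genes, 1 was higher at an unadjusted p under 0.05 (Ndufb5, 0.079 ± 0.034), and every interval lay within 1.5-fold either way. Leaving out a mouse gave 0 to 6 higher (0.519% to 1.67% of all genes over these fits) and a median from 0.012 to 0.058. With equal weights for the strata 14 were higher (2.24% of all genes). Yet 28 of 30 were below 0 in tumor-free mice (median -0.04) and 0 of 30 in LLC mice (median 0.16), and 28 of 30 had an unadjusted interaction p under 0.05, beside 8.58% of all genes. Ndufa2, a subunit of complex I, measured 536, 532, 522, 511 and 535 TPM in Control and 492, 481, 521, 515 and 508 TPM in Control + rFibcd1, and 474, 485 and 450 TPM in LLC and 558, 536, 553 and 540 TPM in LLC + rFibcd1. The tumor-bearing groups did not overlap, and the tumor-free groups overlapped at their edges.

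The test of the interaction of tumor and rFibcd1 gave 0 of 13305 genes (0%) past an adjusted p of 0.05 by limma, with a smallest adjusted p of 0.0588, and 1142 (8.58%) at an unadjusted p under 0.05. Tmem171, a transmembrane protein gene, had the smallest p. It measured 0.608, 1.69 and 0.705 TPM in LLC and 4.06, 2.65, 3.68 and 3.37 TPM in LLC + rFibcd1, and differed by -0.30 in tumor-free and 1.18 in LLC mice. The transcriptional corepressor Cbfa2t3 (-0.14 and 0.46), Ndufa2 (-0.07 and 0.22), the nucleic acid binding protein Ybx1 (-0.09 and 0.17) and the lipid transfer protein Stard7 (-0.11 and 0.23) came next. All 5 genes were lower in tumor-free and higher in LLC mice with rFibcd1, and over all genes 8971 (67.4%) had the same sign in both strata, 7906 of them below 0 in both (59.4%).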

How the data were processed

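RNA was sequenced from 17 diaphragms, 1 per mouse, and groups and replicate numbers came from the labels. The authors trimmed and mapped paired reads to the mouse genome (build mm10, per the labels) in CLC Genomics Workbench, and the deposited values are TPM per gene symbol. The annotation release and whether the counting used strand are not given in the sources used here. The labels name a stranded library kit, and the study's methods name another kit and sequencer. 0 columns lacked a sample. Low values fell in steps of whole reads (81.2% to 84.0% within 0.02, against 4.0% at random) and gave an estimated depth of 50.9 to 54.8 reads per sample in units of 1000000, or 23.9 to 26.7 reads per TPM in a gene of 1000 bases. A sample had 11557 to 13413 genes with at least 1 TPM. Coordinates are from GENCODE vM21 on GRCm38, which matched 45134 symbols (94.7%). Genes with fewer than 3 samples at 1 TPM were dropped, and limma 3.58.1 (R 4.3.3) was run on log2(TPM + 1) (tumor and rFibcd1 as factors, trended moderation, two-sided, Benjamini-Hochberg over 13305 genes), in place of the rank tests of the study, which a stratified rank-sum test covered. A fold on this scale understates changes of low genes. Differences within strata and the interaction came from a model of 4 groups. Python 3.11.15 with scipy 1.17.1 gave the exact permutation tests.

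Named genes were, for each direction, up to 12 of the smallest p with the same sign in both strata, genes without overlap in both strata, up to 4 of the smallest p in a described list, the ERK output and study lists in full, and 5 genes of the interaction. Members and lists were chosen with earlier results of these data known. The labels give no batch, litter or dissection date, so none was tested, and immunoglobulin segments and other close copies are uncertain because reads may be divided between them. Itgam, Cd37, Ltbp4 and Tf were not analysed here. Alternatives covered pseudocount, filter, scaling, model terms and leaving out each mouse.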

Additional observations from a re-analysis of the deposited data

Results flagged for a closer look

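Over 119 genes and 3 measures of whole samples, 366 groups of 4 or 5 mice were examined, and 15 held a mouse far from the others, where chance gives about 1 group in 20. In Control, replicate 5 was highest for Gm7160 (0.879 TPM, the next at 0.443) and Ethe1 (31.8 TPM, next 29.6) and lowest for Bhlhe41 (7.74 TPM, next 11.9). Replicate 3 was highest for Chil3 (0.793 TPM, next 0.244) and lowest for Spred1 (4.64 TPM, next 5.25). Replicate 1 was highest for Ctse (2.02 TPM, next 0.475), replicate 2 for Star (7.20 TPM, next 4.96), and replicate 4 for Tgtp2 (14.7 TPM, next 9.86) and Pagr1a (2.07 TPM, next 0.306). In Control + rFibcd1, replicate 1 was highest for Dusp5 (4.12 TPM, next 1.31) and Ighv8-12 (56.5 TPM, next 0.790), replicate 3 for Flt1 (26.0 TPM, next 21.6), and replicate 5 was lowest for Ucp3 (25.8 TPM, next 42.7). In LLC + rFibcd1, replicate 2 was lowest for Dbp (47.0 TPM, next 70.1) and replicate 3 highest for Zap70 (2.40 TPM, next 0.454). The LLC group of 3 mice was not examined.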

How the results depend on the processing

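The number of genes past an adjusted p of 0.05 was 0 under every alternative run, with 0.0588 as the smallest adjusted p of any gene named. The 73 genes past p and 1.5-fold became 141 with a pseudocount of 0.1 TPM, 48 with a filter at 5 TPM, 45 after quantile normalization, 26 without the tumor factor, 160 with equal weights for the strata and 15 with the B cell score, and 27 (without LLC + rFibcd1 replicate 1) to 333 (without Control + rFibcd1 replicate 1) when a mouse was left out. The 1917 genes at an unadjusted p under 0.05 became 1050, 715 and 512 with quantile normalization, no tumor factor and the B cell score, and 920 (without LLC replicate 3) to 4368 (without Control + rFibcd1 replicate 1). The interaction count of 0 became 1 with no filter, with median-ratio scaling and with quantile normalization, 2 with the B cell score, 12 with array weights and 0 to 11 (without LLC replicate 2) when a mouse was left out. The difference in mitochondrial share was 0.916 to 1.67 points when a mouse was left out, the latter without Control + rFibcd1 replicate 1 (exact permutation p = 0.0333). Mice that moved the first count by over 1.5 times were Control 1 (45), 2 (42) and 5 (210), Control + rFibcd1 1, 3 (32) and 4 (36), LLC 3 (28), and LLC + rFibcd1 1, 3 (183) and 4 (28), and for the second count Control + rFibcd1 1, 3 (1107) and 4 (1163), LLC 1 (1125) and 3, and LLC + rFibcd1 1 (1234) and 4 (1118). The replicate block gave 30 and 1091 genes in place of 73 and 1917, but the numbers do not pair the mice (median correlation of same-numbered mice -0.061, from -0.459 to 0.485 over 22 pairs, others -0.026).

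Of 3540 values for 119 genes, 33 had the opposite sign, in 19 genes, and the cause was not tested. With median-ratio scaling these were Spred3 0.00074, Ier3 0.054, Il17rd 0.038, Ubr4 0.017 and Ppargc1a 0.019, and with quantile normalization Spred3 0.080, Ier3 0.013, Il17rd 0.098, Epha4 0.027, Itgav 0.0030, Traf6 0.036 and Ppargc1a 0.019. With the B cell score they were Napsa 0.074, Cxcl13 0.31, Ctss 0.11, Ctsz 0.011, Ctsh 0.020 and Ybx1 -0.0013, with array weights Ier3 0.038 and with equal strata Ppargc1a 0.069. When a mouse was left out, Ier3 ran from -0.18 to 0.058, Phlda1 from -0.0010 to 0.14, Ybx1 from -0.0030 to 0.029 and Ppargc1a from -0.22 to 0.12. The rank statistic was of opposite sign for Ppargc1a (0.61), Tmem171 (-0.20), Cbfa2t3 (-0.041), Ndufa2 (-0.36), Ybx1 (-0.69) and Stard7 (-0.36). The 12 lower and 12 higher genes with the smallest p kept their sign throughout. With groups of 3 to 5 mice and 1 library each, p-values measure the spread between these mice.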

Other observations

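A list of mast cell genes was written after the value of Kit was seen, so it supports nothing by itself. Of 9 genes tested, 8 were below 0, near the 79.6% of all genes, with a median of -0.44, or -0.31 once the model held the B cell score. Kit, Mcpt4, Cma1, Tpsb2, Fcer1a and Hpgds were lower at an unadjusted p under 0.05 by limma (13.4% of all genes), and Cpa3, Hdc and Gata2 were not. The count was 4 (without Control + rFibcd1 replicate 4, 7.68% of all genes) to 8 (without Control + rFibcd1 replicate 1, 31.5%) when a mouse was left out. The chymases Mcpt4 and Cma1 stood at -0.66 (95% interval -1.16 to -0.155) and -0.63, the tryptase Tpsb2 at -0.63, carboxypeptidase Cpa3 at -0.56, the receptor chain Fcer1a at -0.33, the prostaglandin synthase Hpgds at -0.31 and the histidine decarboxylase Hdc at -0.19, while the factor Gata2 stood at 0.096. Mcpt4 measured 9.16, 15.3, 12.7, 12.4 and 12.8 TPM in Control and 14.8, 10.9, 4.12, 4.58 and 13.2 TPM in Control + rFibcd1, which overlap. It measured 16.9, 17.8 and 17 TPM in LLC and 8.27, 15.3, 5.21 and 8.83 TPM in LLC + rFibcd1, which do not.

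Further lists not described so far are given by their values, to be read against 79.6% of all genes below 0 and 13.4% lower at an unadjusted p under 0.05, or 31.5% lower without Control + rFibcd1 replicate 1. All 18 genes of the unfolded protein response were below 0 (median -0.14), 3 of them at an unadjusted p under 0.05. That count was 0 with median-ratio scaling and 1 in the model with the B cell score (median -0.033). It was 1 (without Control replicate 2, 9.23% of all genes) to 6 (without Control + rFibcd1 replicate 1, 31.5%) when a mouse was left out. All 15 proliferation genes tested were below 0 (median -0.26), again 3 at that p, but 0 with median-ratio scaling and 0 in the model with the B cell score (median -0.059). The count was 2 (without Control replicate 1, 10.4% of all genes) to 12 (without LLC + rFibcd1 replicate 3, 15.7%) when a mouse was left out. Of these 15, 6 were kept only through mock mice, Birc5 and Kif11 among them, so the counts and the median describe the members kept and support nothing. All 16 complement genes were below 0 (median -0.30), with 0 past adjustment and 0 at an unadjusted p under 0.05 by limma, 9 lower without Control + rFibcd1 replicate 1, and a median of 0.0014 in the model with the B cell score. Of 24 cytosolic ribosomal protein genes 23 were below 0 (median -0.11) but 12 with median-ratio scaling, and 1 was lower at an unadjusted p under 0.05 but 21 without Control + rFibcd1 replicate 1. The interval lay within 1.5-fold either way for 23 of 23 proteasome genes. The 12 liver-derived transcripts had a median of 0.40 that ran from -0.43 to 0.77 when a mouse was left out.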
